A study of Mus musculus with 8 samples.

Results

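Polycomb repressive complex 2 (PRC2) was followed through 9 of its genes in the cerebral cortex of mouse embryos with and without Taf8. The members are the core subunit genes Ezh1, Ezh2, Eed and Suz12 and the accessory subunit genes Jarid2, Aebp2, Mtf2, Phf1 and Phf19. They were chosen by name, from what is known of the complex, but with earlier results of these data known. All 9 were found among the 27179 genes of the count matrix. Unstranded libraries of polyadenylated RNA were sequenced from 8 embryos, each library from its own embryo. Of these, 4 were of genotype Taf8 +/+ and are called Taf8-intact, and 4 were of genotype Taf8 -/lox, with a minus and a lox allele, and are called Taf8-deleted. The sources used here give neither the age of the embryos nor the recombinase acting on the lox allele, and so not which cells lost Taf8.

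PRC2 is the enzyme complex that methylates lysine 27 of histone H3, a mark of repressed developmental genes. EZH2 or its paralog EZH1 carries the catalytic SET domain, and SUZ12 and EED hold the enzyme together and let it read its own mark. Accessory proteins fall into alternative sets: JARID2 and AEBP2 join one form of the complex, while one of the Polycomb-like proteins MTF2, PHF1 or PHF19 joins the other. In the developing cortex PRC2 is known for keeping progenitors from changing fate too early, and EZH2 is typical of dividing progenitors while EZH1 is also made in cells that have stopped dividing. TAF8 belongs to TFIID, which binds core promoters and recruits RNA polymerase II. The comparison asks which mRNA levels differ when Taf8 is missing.

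Library totals lay between 39590959 and 44788200 counts. Taf8 itself was at 29.7 to 34.7 CPM, the count scaled to the depth of its library, in the intact and at 0.318 to 0.657 CPM in the deleted libraries, so every library matched its label. The animal numbers of the intact embryos begin with 408 in 3 cases and 409 in 1, those of the deleted embryos with 456, 472, 477 and 486. What this part of the number marks is not stated, and it cannot be told apart from genotype. The cortical markers Emx1, Emx2, Lhx2, Pax6, Eomes, Tbr1 and Neurod6 were present in every library. Of these 7, Lhx2 and Pax6 rose (by 0.20 and 0.48 on the log2 scale), Emx1, Eomes, Tbr1 and Neurod6 fell (log2 fold changes -0.30, -0.28, -0.40 and -1.33), and Emx2 did not pass (-0.04). In whole tissue, fewer cells of a type and less RNA per cell cannot be told apart.

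PRC2 mRNA levels were mostly close to those of intact cortex. Of the changes that passed the test, those of Jarid2 and Aebp2 were small, and those of Ezh1 and Phf1 were -25.5% and -17.8%. Of the 9 members, 4 passed edgeR's quasi-likelihood test at an adjusted p under 0.05, where 63.5% of all 16074 genes tested did. The 4 were 1 gene that rose and 3 that fell, where 30.6% of all genes rose and 32.9% fell. With library totals in place of TMM scaling 5894 of all genes rose and 4416 fell, against 4919 and 5290, and of the members 1 and 2. Aebp2 rose, Ezh1, Phf1 and Jarid2 fell, and Ezh2, Suz12, Eed, Mtf2 and Phf19 did not pass. The 2 groups did not overlap for 4 members, the same 4 genes that passed, where 57.7% of all genes tested had no overlap (27.6% with the deleted libraries higher and 30.1% with them lower). The median log2 fold change was -0.09 over the members and 0.00 over all genes. In size, the median absolute change was 0.09 for the members and 0.27 for all genes tested, whose quartiles lay at 0.12 and 0.54. The genes tested were not matched to the members in level. No member changed 1.5-fold, while 20.6% of all genes passed the test with at least that change.

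**Figure D1:**
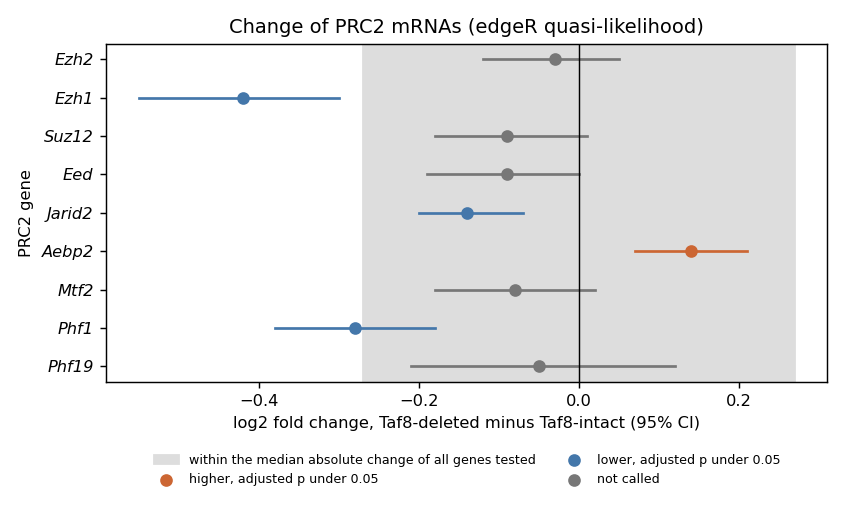
Log2 fold change of each PRC2 gene, Taf8-deleted minus Taf8-intact, with its 95% confidence interval (x axis), coloured by call; the grey band reaches 0.27 to either side of 0, the median absolute change of all genes tested. The points of Ezh1 and Phf1 lie outside the band on the lower side, and the interval of Phf1 reaches into it. The intervals of Ezh2, Suz12, Eed, Mtf2 and Phf19 span 0.

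For 4 of the members, the bases before an annotated start site are shown, since TFIID acts at such sites and these are the catalytic pair and the accessory pair whose balance is described further on. They are RefSeq promoter sequences of GRCm38.p6 on the strand of the gene, 5′ to 3′, ending at the start site or, for Ezh2, at the first base annotated as exon. The regions are chr6:47595059-47595180 (minus strand) for Ezh2, chr11:101226464-101226613 (minus strand) for Ezh1, chr13:44731121-44731270 (plus strand) for Jarid2 and chr6:140624759-140624908 (plus strand) for Aebp2. Capitals mark matches, on either strand, to 3 motifs. The TATA box was searched as TATAAA. For the CCAAT box, the letters of its name were used, and for the GC box GGGCGG. Jarid2 has 2 annotated starts, and the one with the TATA match is shown. Aebp2 has 3, and the one with the most CpG is shown. In GENCODE M21 the Ezh1 stretch lies upstream of the gene, and those of Ezh2, Jarid2 and Aebp2 lie in introns of transcripts that begin further upstream.
Ezh2: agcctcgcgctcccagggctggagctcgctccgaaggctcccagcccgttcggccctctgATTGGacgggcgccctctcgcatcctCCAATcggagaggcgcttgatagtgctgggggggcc
Ezh1: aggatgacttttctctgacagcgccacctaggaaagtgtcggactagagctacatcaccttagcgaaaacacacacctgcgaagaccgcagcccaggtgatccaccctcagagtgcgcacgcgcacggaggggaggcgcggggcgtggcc
Jarid2: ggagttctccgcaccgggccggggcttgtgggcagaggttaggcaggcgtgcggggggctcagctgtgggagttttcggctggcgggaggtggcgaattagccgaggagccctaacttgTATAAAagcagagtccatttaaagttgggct
Aebp2: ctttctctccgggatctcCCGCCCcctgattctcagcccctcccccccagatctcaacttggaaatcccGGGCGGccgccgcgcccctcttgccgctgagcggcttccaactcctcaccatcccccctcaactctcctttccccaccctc

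Ezh2 and Ezh1 differed in these letters: Ezh2 had 3 CCAAT matches within 250 bases of its start, the last of them beyond the printed stretch, and Ezh1 had no match to any of the motifs. The Jarid2 start shown has TATAAA with its first base at position -31, counted from the start site. It was the 1 TATA match among the 13 annotated windows of the 9 members, and 6.76% of the 15446 windows of genes tested hold one. CCAAT matches were found in 5 of the 13 windows, against 35.0% of the windows of genes tested, and GC box matches in 8 of 13, against 55.6%. Of 3 letter strings used for E2F sites (TTTCGCGC, TTTCCCGC and TTTGGCGC), the second was found, in the windows of Suz12 and Phf19, while 2.67% of windows hold any of the 3. Which of the annotated starts were in use cannot be read from counts per gene.

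Of the catalytic pair, Ezh2 stayed within the spread of the embryos and Ezh1 fell. Ezh2, with gene ID 14056, spans bases 47530139 to 47595341 of chromosome 6 in GRCm38, the build of all positions here. Its level was 291, 298, 273 and 278 CPM in the intact and 270, 284, 272 and 288 CPM in the deleted libraries. The groups overlapped. The log2 fold change was -0.03 ± 0.04 (SE), adjusted p = 0.452, and turned to 0.02 with upper-quartile factors and 0.03 with library totals. Its 95% confidence interval ran from a change of -7.69% to 3.41%, and 6.99% of all genes tested had a smaller absolute change.

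Ezh1 (gene ID 14055, chromosome 11, 101191115 to 101226463) had 23.6, 23.6, 26.8 and 25.1 CPM in the intact and 19.8, 17.2, 18.4 and 18.4 CPM in the deleted libraries. Every deleted library was below every intact one. The fall was 0.745-fold, a log2 fold change of -0.42 ± 0.06 (SE) with a 95% interval from -0.55 to -0.30 and adjusted p = 5.18e-05. Ezh1 was thus the member with the largest change, and 66.5% of all genes tested had a smaller one. No other annotated gene shares exon bases with Ezh1, while 174 exon bases of Ezh2 lie under the noncoding gene Gm26625 on the other strand.

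Suz12 and Eed, the scaffold and the mark-reading subunit, were slightly lower in the deleted libraries without passing the test. Suz12 (gene ID 52615, chromosome 11, 79993106 to 80034123) had 197, 201, 180 and 186 CPM in the intact and 178, 180, 173 and 189 CPM in the deleted libraries. Eed (gene ID 13626, chromosome 7, 89954654 to 89980983) had 53.3, 55.3, 49.2 and 50.3 CPM against 47.0, 48.4, 50.2 and 49.9 CPM. In both genes the lowest intact library lay inside the range of the deleted ones. The log2 fold changes were -0.09 ± 0.04 for both (SE), with adjusted p = 0.0917 for Suz12 and 0.0863 for Eed, and the intervals allowed falls of up to 11.7% and 12.1%. On the other strand, Suz12 shares 178 exon bases with Gm26563 and Eed 261 with E230029C05Rik.

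Intact replicate 3 was the lowest intact library for Ezh2, Suz12, Eed and Phf19 and the highest for Ezh1, Mtf2 and Phf1. For Jarid2 and Aebp2 it was neither. The same library had the lowest sum of 10 proliferation markers, 1990 CPM against 2270 to 2400 CPM in the other intact libraries. It also had the highest sum of 9 neuronal markers, 7410 CPM against 6730 to 6920 CPM. Without it, both Suz12 and Eed passed the test, each at -0.11 with adjusted p = 0.0403 and 0.0433. Without intact replicate 2, the highest for both, each was at -0.05 (adjusted p = 0.353 and 0.357). With upper-quartile factors or library totals each was at -0.03 (adjusted p = 0.525 to 0.613). Leaving out intact replicate 3 thus brought the members that fell from 3 to 5. The part of cell composition in these values was not tested.

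The accessory pair of the JARID2 form moved apart. Jarid2 (gene ID 16468, chromosome 13, 44729474 to 44921643), which encodes a protein that helps PRC2 find its targets, had 147, 146, 144 and 142 CPM in the intact and 130, 134, 131 and 131 CPM in the deleted libraries. All deleted libraries were below all intact ones, by a narrow but clear margin. It fell by 0.14 ± 0.03 on the log2 scale (SE, adjusted p = 0.00182), a change of -8.94% with a 95% interval from -13.0% to -4.71%. With library totals in place of TMM scaling the fold change was -0.07 and the call was lost (adjusted p = 0.0545).

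Aebp2 (gene ID 11569, chromosome 6, 140622663 to 140678472), encoding a zinc finger protein that stabilises PRC2, was the 1 member that rose. It had 79.4, 76.6, 74.2 and 73.9 CPM in the intact and 85.0, 83.3, 82.8 and 82.9 CPM in the deleted libraries. The lowest deleted library was above the highest intact one. The change was 9.86% with a 95% interval from 4.68% to 15.3%, or 0.14 ± 0.03 (log2, SE; adjusted p = 0.00264). Neither gene shares exon bases with another annotated gene.

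Among the Polycomb-like genes, Phf1 fell and Mtf2 and Phf19 did not pass. Phf1 (gene ID 21652, chromosome 17, 26933052 to 26937908), whose protein reads methylated lysine 36 of histone H3, had 33.4, 31.0, 33.5 and 32.1 CPM in the intact and 26.6, 26.2, 28.1 and 25.9 CPM in the deleted libraries. The groups were well separated. The log2 fold change was -0.28 ± 0.05 (SE, adjusted p = 0.00015), a fall to 0.822-fold. In GENCODE M21, 1370 exon bases of Phf1 are shared with Cuta on the opposite strand, so that unstranded reads there cannot be assigned to one of them. Cuta, a gene of a small protein of unsettled function, had 32.8 to 34.4 CPM in the intact and 30.1 to 34.3 CPM in the deleted libraries, with a log2 fold change of -0.04 ± 0.05 (adjusted p = 0.482).

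Mtf2 (gene ID 17765, chromosome 5, 108065674 to 108109004) encodes the Polycomb-like protein known for recruiting PRC2 to CpG islands. It had 108, 109, 114 and 102 CPM in the intact and 102, 98.7, 97.8 and 110 CPM in the deleted libraries. Deleted replicate 4 lay among the intact libraries, and the others were at or below the lowest of them. The log2 fold change was -0.08 ± 0.05 (SE, adjusted p = 0.129), and without deleted replicate 4 it was -0.11 and passed (adjusted p = 0.0252), which brought the members that fell to 4. It shrank to -0.05 without intact replicate 3 or deleted replicate 3, to -0.03 and -0.02 with upper-quartile factors and library totals, and to -0.03 without deleted replicates 2 and 3 (adjusted p = 0.65). Tmed5, a gene of vesicle traffic on the other strand, shares 395 exon bases with Mtf2 and was at 0.13 ± 0.06 (log2, SE; adjusted p = 0.0578). Deleted replicate 4 also had the lowest sum of 6 meningeal markers of its group, 18.7 CPM against 60.9 to 146 CPM. Its sums of endothelial, microglial and blood markers were the lowest of the group too. Its neuronal sum was the highest, 5440 CPM against 4990 to 5030 CPM, as was its proliferation sum, 2120 CPM against 2020 to 2040 CPM. The part of cell composition in the Mtf2 values was not tested.

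Phf19 (gene ID 74016, chromosome 2, 34893757 to 34914026), which encodes the third Polycomb-like protein, was the least abundant member. It had 8.86, 8.39, 7.93 and 9.32 CPM in the intact and 8.94, 8.33, 8.27 and 7.85 CPM in the deleted libraries. The groups overlapped fully. The log2 fold change of -0.05 ± 0.07 (SE, adjusted p = 0.601) changed sign to 0.01 with upper-quartile factors or library totals, and its interval ran from -13.5% to 8.35%.

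Per length of gene model, the levels kept nearly the same order in both groups. Given as RPKM, which is CPM divided by the deposited gene length in kilobases, Ezh2 was the highest in both groups, at 107 ± 4.36 in the intact and 104 ± 3.23 in the deleted libraries (SD, n = 4 each). Suz12 followed at 43.7 ± 2.22 and 41.1 ± 1.54 RPKM. In the intact libraries Eed (25.3 ± 1.35 RPKM) and Jarid2 (23.5 ± 0.373 RPKM) came next, with Eed ahead in each library. The lowest Eed and the highest Jarid2 value were both 23.9 RPKM after rounding. Mtf2 followed at 20.7 ± 0.907 RPKM. In the deleted libraries Jarid2 (21.4 ± 0.330 RPKM) and Mtf2 (19.5 ± 1.10 RPKM) had overlapping ranges, below Eed at 23.7 ± 0.709 RPKM. Phf1 and Aebp2 exchanged places, Phf1 being ahead at 13.4 ± 0.486 against 11.5 ± 0.387 RPKM in the intact and behind at 11.0 ± 0.419 against 12.6 ± 0.157 RPKM in the deleted libraries. Their ranges did not overlap in either group. Ezh1 at 5.90 ± 0.363 and 4.40 ± 0.248 RPKM and Phf19 at 2.30 ± 0.160 and 2.23 ± 0.119 RPKM closed the order. Among all genes tested, the level of Ezh2 exceeded that of 97.3% and the level of Phf19 that of 28.0%.

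**Figure D2:**
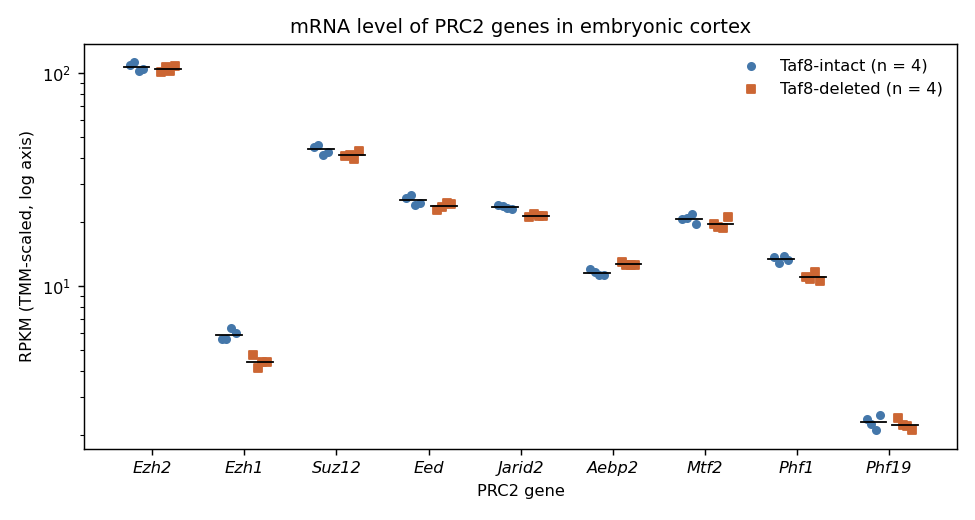
Level of each PRC2 gene in RPKM (y axis, logarithmic) in the 4 Taf8-intact (circles) and 4 Taf8-deleted libraries (squares), with the group mean as a bar. Ezh2 was highest and Phf19 lowest in both groups, and Phf1 and Aebp2 exchanged places.

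The balance between related subunits was compared as shares of their summed RPKM, in 5 exact permutation tests. EZH1 and EZH2, and likewise the Polycomb-like proteins, take each other's place in the complex, while JARID2 and AEBP2 join the same form, so that their share is only a ratio of the 2 mRNAs. Ezh2 made up 95.1%, 95.2%, 94.1% and 94.6% of the sum of Ezh1 and Ezh2 with Taf8 intact and 95.5%, 96.3%, 95.9% and 96.1% with Taf8 deleted. The deleted libraries were all higher, by 1.20 percentage points on average (two-sided exact permutation p = 0.0286, adjusted p = 0.0714, n = 4 each). Jarid2 made up 66.5%, 67.1%, 67.5% and 67.3% of the sum of Jarid2 and Aebp2 in the intact and 62.1%, 63.4%, 63.0% and 62.9% in the deleted libraries, a difference of -4.28 points that was several times the SD of 0.432 and 0.549 points within the groups (exact permutation p = 0.0286, adjusted p = 0.0714). With 4 libraries against 4, a p of 0.0286 is the smallest possible, so neither share passed after adjustment over the 5 shares, although the groups did not overlap.

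Mtf2 was the main Polycomb-like mRNA in all libraries. Its share of the sum of the 3 genes was 56.9 ± 1.29% in the intact and 59.6 ± 2.00% in the deleted libraries (SD, n = 4 each; exact permutation p = 0.0857, adjusted p = 0.107). Phf1 made up 36.8 ± 0.882% and 33.6 ± 1.73% (exact permutation p = 0.0571, adjusted p = 0.0952), and Phf19 6.34 ± 0.591% and 6.81 ± 0.453% (exact permutation p = 0.314, adjusted p = 0.314). The groups overlapped in each of these 3 shares. For Phf1, the overlap came from deleted replicate 3 at 35.7% and intact replicate 2 at 35.6%.

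**Figure D3:**
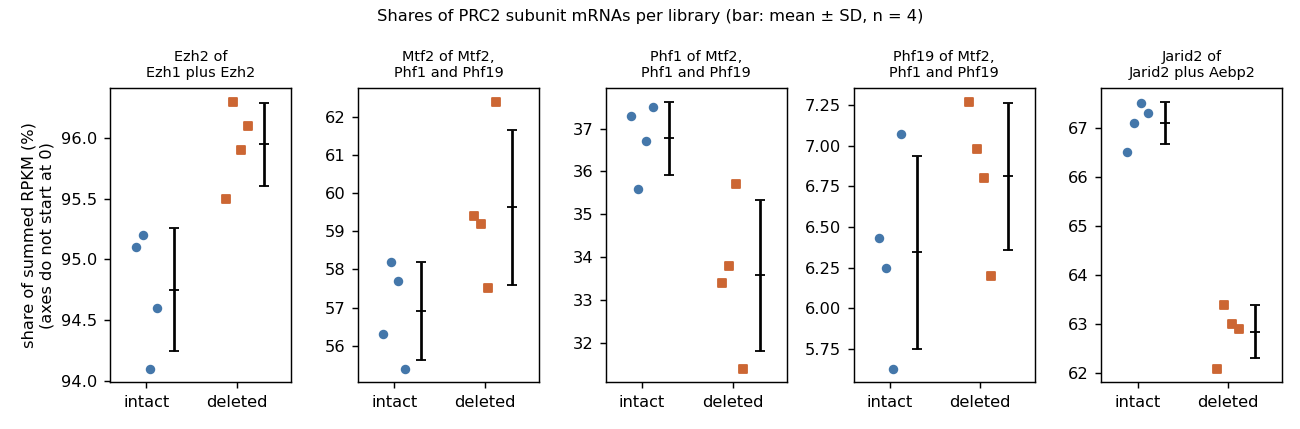
Share of the summed RPKM (y axes in percent, not starting at 0) that each named subunit takes (Ezh2 of Ezh1 plus Ezh2, Jarid2 of Jarid2 plus Aebp2, the Polycomb-like genes of their own sum), per library, with mean ± SD (n = 4) beside the points. The groups are apart for Ezh2 and for Jarid2 and overlap for the 3 Polycomb-like genes.

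Genes of the wider Polycomb system changed in both directions. Over 6 related lists, 55 genes were tested, of which 10 rose and 18 fell, beside the 30.6% and 32.9% of all genes. Their median change was -0.02 on the log2 scale. With upper-quartile factors or library totals 16 of them rose and 14 fell. Of the other PRC2 partners, Rbbp7, a histone chaperone subunit shared with other complexes, fell by 0.21 ± 0.04 (log2, SE; adjusted p = 0.000618), while its paralog Rbbp4 was at -0.06 ± 0.03 and did not pass (adjusted p = 0.157; 0.00 and 0.01 with upper-quartile factors and library totals). Epop, Lcor and Lcorl did not pass either. Ezhip, which encodes an inhibitor of EZH2, was left out by the filter on low counts, at 0 to 0.0487 CPM in the intact and 0.0452 to 0.249 CPM in the deleted libraries.

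PRC1, the partner complex that ubiquitinates histone H2A, had 9 of 23 genes lower and 3 higher. Of all genes tested, 32.9% were lower and 30.6% higher. Bcorl1 and Kdm2b, both of variant PRC1, fell by 0.51 ± 0.03 and 0.46 ± 0.03 on the log2 scale (SE; adjusted p = 4.12e-08 and 2.32e-07). Bmi1, a subunit that activates the ubiquitin ligase and maintains neural stem cells, fell from 142 ± 4.36 to 115 ± 1.99 CPM (SD, n = 4 each), and Scmh1 by 0.40 ± 0.04. In the other direction, Cbx2, whose protein reads the mark that PRC2 writes, rose by 0.23 ± 0.04 (adjusted p = 0.000282). Rnf2, which encodes a catalytic subunit, rose by 0.16 ± 0.04 (adjusted p = 0.00526). Its paralog Ring1 was lower, at -0.20 ± 0.07 with overlapping groups (adjusted p = 0.0192). Exon bases of Kdm2b and Rnf2 are shared with other annotated genes.

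Of the enzymes that remove the PRC2 mark, Kdm6b fell from 323 ± 6.18 to 227 ± 11.4 CPM (SD, n = 4 each; log2 fold change -0.51 ± 0.04, adjusted p = 2.94e-07). Its 314 to 328 CPM in the intact libraries stood clear of the 212 to 240 CPM in the deleted ones. Kdm6a, on the X chromosome, fell by 0.10 ± 0.04 with overlapping groups (adjusted p = 0.032), and the call was lost under 13 of 18 alternatives, with adjusted p up to 0.335. Uty, its Y-linked relative, was at 0.09 ± 0.05 and did not pass (adjusted p = 0.119), but passed under 4 of 18 alternatives, at up to 0.16. Antisense Kdm6bos shares 286 exon bases with Kdm6b.

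Among 8 genes of PR-DUB, the complex that removes the PRC1 mark, 3 rose and 2 fell. For this list and the lists that follow, the shares over all genes tested were 30.6% rising and 32.9% falling. Mbd6 rose by 0.41 ± 0.05 and the deubiquitinase gene Bap1 by 0.15 ± 0.03 on the log2 scale, while Asxl3 fell by 0.44 ± 0.09 and Foxk2 by 0.16 ± 0.03. Foxk1, at 0.08 ± 0.03, passed narrowly and lost its call under 9 of 18 alternatives, with adjusted p up to 0.181. Of 11 genes of the COMPASS complexes, which methylate lysine 4 of histone H3 and counteract Polycomb, 4 rose and 1 fell, led by Ash2l at 0.24 ± 0.03, with Dpy30 at 0.19 ± 0.04, Wdr5 at 0.11 ± 0.03 and Setd1b at -0.18 ± 0.05. With only 2 deleted libraries, replicates 1 and 4, Wdr5 (0.09, adjusted p = 0.077) and Setd1b (-0.12, adjusted p = 0.0642) no longer passed, while over all alternatives their log2 fold changes ran from 0.09 to 0.17 and from -0.21 to -0.12. Of 5 writers of lysine 36 methylation, a mark that hinders PRC2, Nsd2, Nsd1 and Nsd3 fell by 0.21 ± 0.04, 0.23 ± 0.06 and 0.13 ± 0.05, and the last lost its call under 10 of 18 alternatives, with adjusted p up to 0.345.

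**Figure D4:**
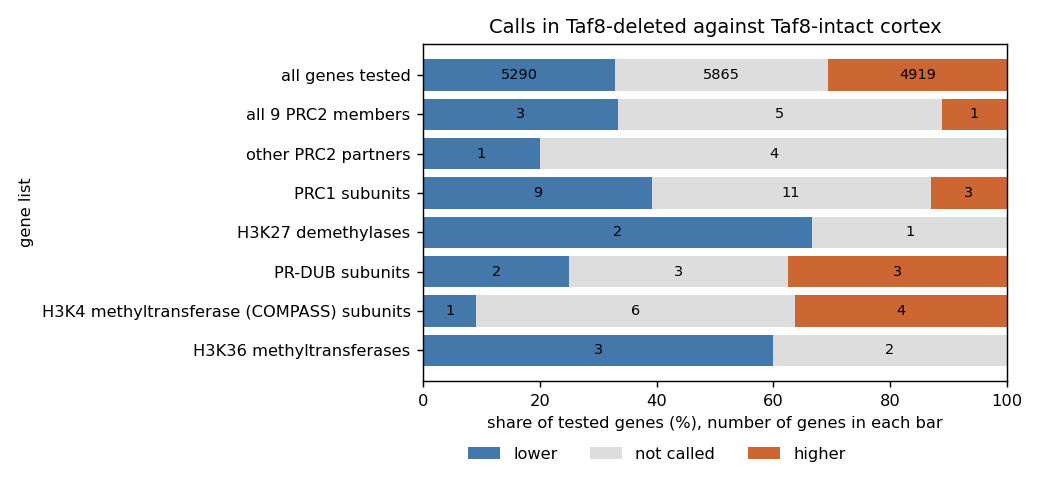
Share of tested genes (x axis, percent) that were lower, not called or higher in Taf8-deleted cortex, for all genes, the 9 PRC2 members and 6 related lists, with the number of genes written in each bar. Of the members 5 of 9 were not called, and of PRC1 genes 11 of 23.

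Classical PRC2 targets that belong to other body regions stayed near 0 in both groups. All 39 Hox genes together had 4 to 9 counts in an intact and 5 to 12 counts in a deleted library, 24 of them had no count in any library, and none passed the filter on low counts. The sum was 0.0949 to 0.209 CPM in the intact and 0.110 to 0.271 CPM in the deleted libraries. Hoxb9, the Hox gene with the most reads, was at 0.0585 ± 0.0555 and 0.0458 ± 0.0409 CPM (SD, n = 4 each), at or near the 0.0670 to 0.0758 CPM that 3 counts amount to. Cdkn2a, the cell cycle inhibitor locus known as a PRC2 target in ageing and dividing cells, had 0 to 1 counts in the intact and 0 to 3 counts in the deleted libraries. At this depth no rise of these genes was detectable. Of 20 further target genes, 6 were tested, and Isl1, a homeobox gene also made in the ventral telencephalon, was the 1 that passed, falling by 0.35 ± 0.08 on the log2 scale (adjusted p = 0.00251). It had 38.9 to 49.4 CPM in the intact and 33.2 to 38.0 CPM in the deleted libraries. Over all genes tested, 63.5% passed, but T, Pax2, Nkx2-2 and Pax7, among the 6, had group means of only 0.182 to 0.324 CPM. Their SEs of 0.31 to 0.49 exceeded 0.27, the median absolute change of all genes tested. A change of that size could not pass in them.

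Markers of the cells in which PRC2 subunits are made also moved, beside the 30.6% of all genes tested that rose and the 32.9% that fell. The sum of 8 radial glia markers was 2070 to 2360 CPM in the intact and 2940 to 3150 CPM in the deleted libraries, with 5 genes higher and 2 lower. Of 9 markers of postmitotic neurons, 8 fell, and their sum went from 6730 to 7410 CPM down to 4990 to 5440 CPM. Among 10 proliferation markers, 5 fell and none rose, with sums of 1990 to 2400 and 2020 to 2120 CPM, while Mki67 (-0.07 ± 0.08, adjusted p = 0.471) and Top2a (-0.13 ± 0.06, adjusted p = 0.0806) did not pass. Other cell types in a dissected cortex were represented by 6 meningeal (15.9 to 36.9 CPM intact, 18.7 to 146 CPM deleted), 4 endothelial (75.1 to 83.2 and 92.3 to 116 CPM), 5 microglial (29.8 to 32.4 and 29.7 to 38.0 CPM) and 4 measured blood markers (83.5 to 101 and 85.6 to 150 CPM), none of which was at 0 in every library. The part of these shifts in the changes of Ezh1, Phf1, Jarid2 and Aebp2 was not tested. Without deleted replicates 2 and 3, which had the highest meningeal sums, 1 member rose and 3 fell, as in the full set. Deleted replicate 1, which stayed in, had a meningeal sum of 60.9 CPM, above the 36.9 CPM of the highest intact library. The neuronal and radial glia sums of the remaining deleted libraries also stayed apart from the intact ones. The part of cell composition was thus not tested by this omission either.

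**Figure D5:**
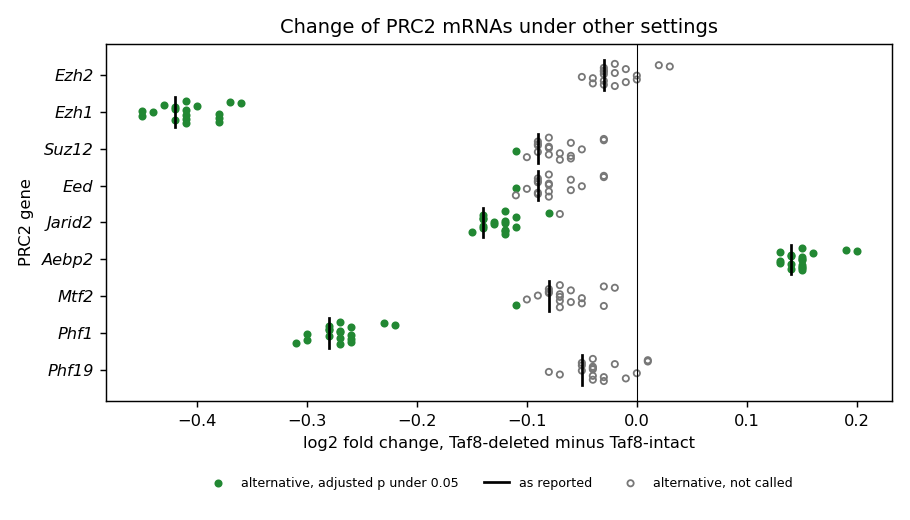
Log2 fold change of each PRC2 gene (x axis) under 18 other settings (points, filled where the adjusted p was under 0.05) and as reported (vertical bars). Ezh1, Phf1 and Aebp2 were called under all of them, and the points of Ezh2 and Phf19 lie on both sides of 0.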

How the data were processed

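Gene counts of 8 libraries, 4 per group, were used as deposited. Per the labels' protocols the authors made unstranded TruSeq libraries of polyadenylated RNA. Per the submitters' processing notes bcl2fastq 1.8.4, Subread 1.5.0, featureCounts and mm10 were used, in roles not given. The authors deposited raw read counts of each gene with gene lengths, and the 8 separate lists equal the columns of the matrix. Symbols came from RefSeq (GRCm38.p6) for 25275 of 27179 identifiers. The rest stayed in the totals, at 0.490% to 1.639% of a library. Positions and exon overlaps came from GENCODE M21, also on GRCm38.

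Genes were tested with edgeR 4.0.16 (R 4.3.3): filterByExpr (16074 genes left), TMM factors, robust quasi-likelihood fit without covariates, and Benjamini-Hochberg adjustment over all genes tested. Each SE was derived from F and the fitted change. CPM and RPKM use TMM-scaled library sizes. Shares were compared by exact permutation of the 8 libraries, adjusted over 5 shares. The fit was also run on simulated counts, with the same coefficient of variation of 8% for all genes and few of them changed. That was a check of the code and not of the calls made here, where most genes passed. No pair of libraries agreed within sampling noise (chi-square per gene 4.22 to 14.6). The limit of 3 counts covers counting error only, as the reads carry no molecular identifiers.

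Members and lists were chosen with earlier results of these data known. Named are all members and Taf8, up to 4 genes of each related list with the smallest p and up to 2 of the opposite direction, and the most abundant genes of silent and marker lists. Further genes named were chosen after their values were seen (Cuta, Tmed5, Cdkn2a, Ezhip, Epop, Ring1, Pax2, Nkx2-2 and the less abundant cortical markers). Alternatives were other size factors, other filters, DESeq2 1.42.0, limma 3.58.1 (voom), a replicate block and leaving out each library. Leaving out deleted replicates 2 and 3, or identifiers without a symbol, was added after seeing the data.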

Additional observations from a re-analysis of the deposited data

Results flagged for a closer look

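Each group of 4 libraries was checked for a single library far from the others, over the members, the 5 shares and the named genes, in 120 groups. None of the 9 members and none of the shares had such a library. It occurred in 2 groups, both of marker genes, where chance alone gives about 1 in 20 groups. Col3a1, a fibrillar collagen gene of the meninges, was at 12.2 CPM in intact replicate 4 and at 5.99 to 6.97 CPM in the other intact libraries. Cx3cr1, a chemokine receptor gene of microglia, was at 9.15 CPM in deleted replicate 3 and at 7.71 to 7.83 CPM in the other deleted libraries.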

How the results depend on the processing

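Of 162 values of the 9 members under 18 alternatives, 153 kept their direction and their side of the threshold. Ezh2 turned from -0.03 to 0.02 with upper-quartile factors and 0.03 with library totals. Phf19 turned from -0.05 to 0.01 under both, and leaving out 1 library at a time gave -0.08 to 0.00 (the latter without intact replicate 4). These factors moved the median of all genes by 0.058 and 0.062. Leaving out 1 library at a time gave 1 member higher throughout and 3 to 5 lower. The other reversals were of genes that did not pass: Kmt2c (0.01 with both factors, -0.11 to 0.03 without 1 library, positive without intact replicate 3 or deleted replicate 2, 0.11 without deleted replicates 2 and 3), Men1 (0.04 with both factors, 0.01 where 4 libraries had to exceed 1 CPM, -0.03 to 0.00 without 1 library), Rbbp4 (0.00 and 0.01 with the factors) and Lcor (-0.01 to 0.10 without 1 library, negative without deleted replicate 4). Of the 55 related genes, 16 rose with either set of factors. The cause was not tested. The 5 shares kept their direction under the 11 alternatives run for them. With 3 libraries in a group the permutation p cannot go below 0.0571, so their side of the threshold says nothing about stability.

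Same-numbered libraries were not paired: their deviations from the group means correlated at -0.216, 0.0328, -0.0275 and -0.475. With a replicate block, 4605 genes rose and 5060 fell, against 4919 and 5290 without it, and the members stayed at 1 and 3. The permutation p of the Ezh2 and Jarid2 shares with the block was 0.125, the smallest that 4 pairs allow.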
